A study of Mus musculus with 27 samples.

Results

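Whole mouse embryonic stem cells 8 days after deletion of Dicer were compared with the same cells on day 0, before deletion was induced. The comparison uses 6 of the 27 libraries of the series, 3 whole-cell libraries labelled day 8 and 3 labelled day 0, taken from the labels. Both groups are DTCM23/49 XY embryonic stem cells, in which the Dicer allele is conditional, cultured on gelatin in medium with fetal bovine serum and leukemia inhibitory factor (LIF). The day 8 cells had been cultured with 4-hydroxytamoxifen at 800 nM to delete the part of Dicer that encodes its RNase III domain, after which colonies lacking Dicer were selected and expanded with regular passages. The treatment protocol names an ethanol control, but no library after day 0 is labelled as one, so loss of Dicer, drug, time in culture and expansion of selected colonies cannot be told apart. The labels name no preparation or sequencing batch, so a batch difference between the days cannot be told apart from the rest either. The labels do not say how many colonies were pooled for a library.

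Dicer is the RNase III enzyme that cuts precursor hairpins into mature microRNAs, which in turn lower the stability and translation of the mRNAs they pair with. Embryonic stem cells without Dicer survive and keep self-renewing, but they are known to grow slowly and to differentiate poorly. Polyadenylated RNA was sequenced from directional paired-end libraries, and each value is FPKM, fragments scaled for transcript length and for the size of the library. Differences are on the log2(FPKM + 0.5) scale as day 8 minus day 0, with the standard error and the Benjamini-Hochberg adjusted p of limma, and they understate the change of genes near 0.5 FPKM. Levels with ± are a mean and SD of 3 libraries. A gene rose or fell where its adjusted p was under 0.05 over all 15991 genes tested. A list of published targets of the main microRNA families of embryonic stem cells, pseudogenes and genes with a near-identical copy elsewhere in the transcriptome were left out when genes were chosen for description. Targets of other microRNAs were not left out, and marker lists were kept whole.

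The 3 day 0 libraries were sequenced more deeply. Steps between low FPKM values put their depth at 3.49 to 4.12 times that of day 8 replicate 1, against 1.05 and 1.27 times for the other two day 8 libraries, so counting error is largest for low genes at day 8. Between 12230 and 12367 genes reached 1 FPKM in the day 0 libraries and 12762 to 12867 in the day 8 libraries. Correlations of log2 values were 0.983 to 0.993 within a day and 0.929 to 0.940 between the days. FPKM is a share of a library, so fewer cells that express a gene and less of its RNA per cell cannot be told apart.

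Dicer1 itself (chromosome 12, 104687742 to 104751952, minus strand, GRCm38), the targeted gene, was measured first. It stood at 15, 16 and 17.9 FPKM at day 0 and 1.67, 1.56 and 1.9 FPKM at day 8. The day 8 level was 10.5% of the day 0 level (log2 -2.93 ± 0.16, adjusted p = 6.79e-08; exact 2-sided permutation p = 0.1, the smallest that 3 against 3 allows). The groups did not overlap, and every library matched its label. FPKM covers the whole gene, and no value is given for the deleted exons alone. In the whole-cell libraries labelled day 12, which enter the fit but not the comparison, Dicer1 stood at 14.6 ± 1.77 FPKM, which goes against their label; they are called the libraries labelled day 12 below.

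Defining genes of embryonic stem cells were high in both groups. Pou5f1, which encodes Oct4, stood at 350.4, 325 and 322 FPKM at day 0 and 418, 455 and 406 FPKM at day 8, and the day 8 libraries lay above those of day 0 (log2 0.36). Sox2 and Esrrb, which encode partner factors of the same network, had means of 169 and 78.2 FPKM at day 0 and of 169.9 and 79.3 FPKM at day 8, and neither passed the test.

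The test called 4769 of 15991 genes (29.8%), of which 3230 (20.2% of all) were higher at day 8 and 1539 (9.62%) were lower. By more than 1 on the log2 scale, 1005 were higher and 225 lower. The share of calls that were higher was 67.7%, and it depended on the scaling: it was 56.3% after median-of-ratios scaling and 45.9% after quantile normalization, which moved the median of all genes from 0.06 to -0.07, a shift of -0.13. Small differences of either sign should be read against that shift. Among the 12688 protein-coding and lncRNA genes without a near-identical copy, 2522 (19.9%) rose and 1135 (8.95%) fell, with a median of 0.06. Among the 1283 tested genes with such a copy, 172 were higher and 285 lower, the opposite balance, and none of these is described by name as a result. Regardless of the test, all 3 day 8 libraries were above all 3 day 0 libraries in 33.8% of the genes tested and below them in 20.3%.

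The 12 genes with the largest rises encode proteins of several kinds, of which secreted and surface proteins are given first. Csf1 (chromosome 3, 107741048 to 107760469, minus strand), the growth factor that macrophages depend on, stood at 0.9, 1.51 and 1.52 FPKM at day 0 and 12.7, 12.8 and 13.9 FPKM at day 8. All 3 day 8 libraries lay far above the day 0 libraries, and the rise was the largest among the named genes (log2 2.93 ± 0.23, adjusted p = 1.29e-06). Thbs1, which encodes thrombospondin 1, a matrix glycoprotein able to activate latent TGF-beta, stood at 3.05, 6.08 and 5.43 FPKM at day 0 and 41.4, 29.1 and 40.9 FPKM at day 8 (log2 2.85 ± 0.34). The day 8 values spread from 29.1 to 41.4 FPKM and none reached down to the day 0 range. Msln, the gene of the mesothelial surface protein mesothelin, stood at 0.882, 0.833 and 0.605 FPKM at day 0 and 7.13, 7.37 and 6.96 FPKM at day 8 (log2 2.59 ± 0.17). It was near 1 FPKM in each day 0 library and about level among the day 8 libraries. F3, which encodes tissue factor, the receptor that starts blood coagulation, stood at 7.22, 10.9 and 8.11 FPKM at day 0 and 42.8, 43.6 and 41 FPKM at day 8 (log2 2.24 ± 0.12). Edn1, the gene of the vasoconstrictor peptide endothelin 1, stood at 0.844, 1.24 and 0.854 FPKM at day 0 and 6.1, 6.96 and 6.09 FPKM at day 8 (log2 2.23 ± 0.24). For both genes the groups were clearly apart.

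F3 and Edn1 had the smallest rises of the 12, and the 5 genes that follow lay between them and Msln. Anxa1, an annexin that binds phospholipids in a calcium-dependent way, went from 3.01 ± 0.669 to 18 ± 1.31 FPKM, log2 2.41 ± 0.16. Pmp22, a tetraspan membrane protein best known from myelin, went from 4.33 ± 1.2 to 22.3 ± 1.59 FPKM, log2 2.27 ± 0.16. Prss35, a gene of the serine protease family, went from 2 ± 0.205 to 11.5 ± 0.433 FPKM, log2 2.26 ± 0.11. Lxn, which encodes the carboxypeptidase inhibitor latexin, went from 2.26 ± 0.338 to 12.7 ± 1.34 FPKM, log2 2.26 ± 0.12. None of these groups overlapped, as the rule for naming them required. Platr25, named as a pluripotency-associated transcript and listed as protein-coding in the annotation, stood at 0.729, 0.649 and 0.696 FPKM at day 0 and 6.31, 5.54 and 4.93 FPKM at day 8 (log2 2.35 ± 0.16). It was low in the day 0 whole-cell libraries alone among the groups measured, since on day 0 the cytoplasm held 5.88 FPKM and the nucleus 6.19 FPKM. Its longest transcript matched another gene over 9.02% of its length, just under the 10% that defined a near-identical copy. The part of this match in its rise was not tested.

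The largest falls were in genes of several unrelated functions. Pim2 (chromosome X, 7878262 to 7883432, plus strand), a serine/threonine kinase gene that cytokine signals through Stat factors induce, stood at 91.4, 107 and 101 FPKM at day 0 and 28.3, 30.7 and 30.4 FPKM at day 8 (log2 -1.73 ± 0.11, adjusted p = 3.05e-07). It was the most abundant gene among the largest falls, and no day 8 library came near the lowest of day 0. For Pim2 the whole cells of day 0 also stood apart from the fractions of that day, which held 35.1 FPKM in the cytoplasm and 15 FPKM in the nucleus, and the part of this in the fall was not tested. Adarb2, a brain-enriched relative of the RNA-editing deaminases with no known editing activity of its own, stood at 5.85, 4.89 and 4.83 FPKM at day 0 and 1.15, 0.875 and 1.02 FPKM at day 8 (log2 -1.91 ± 0.23). Enpp2, which encodes autotaxin, the secreted enzyme that makes lysophosphatidic acid, stood at 5.11, 5.63 and 5.3 FPKM at day 0 and 1.55, 1.11 and 1.69 FPKM at day 8 (log2 -1.59 ± 0.13). Both stayed under 2 FPKM in every day 8 library. Enpp2 was at 2.06 FPKM in the cytoplasm and 2.84 FPKM in the nucleus on day 0, again below whole cells. Nrtn, the gene of the GDNF-family ligand neurturin, went from 10.5 ± 0.956 to 3.62 ± 1.07 FPKM, log2 -1.45 ± 0.2. Thy1, a GPI-anchored surface protein, went from 7.62 ± 0.332 to 2.85 ± 0.43 FPKM, log2 -1.29 ± 0.15.

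Further falls included noncoding and germ-cell genes. Platr14 and Platr3, transcripts named for their association with pluripotency, went from 39.7 ± 10.7 to 13.4 ± 0.713 FPKM, log2 -1.5 ± 0.16, and from 19.2 ± 1.51 to 6.82 ± 0.846 FPKM, log2 -1.43 ± 0.17, respectively. Ybx2, a Y-box protein that binds mRNA in germ cells, went from 14.6 ± 3.39 to 5.3 ± 0.518 FPKM, log2 -1.36 ± 0.19. Pigyl, a homologue of a subunit that makes GPI anchors, went from 84.5 ± 13.8 to 33.8 ± 0.6 FPKM, log2 -1.3 ± 0.14, and Dcdc2b, a doublecortin-domain gene, from 11.9 ± 1.06 to 4.2 ± 0.83 FPKM, log2 -1.41 ± 0.27. Day 0 replicate 1 was the highest of all for Platr14, Ybx2 and Pigyl, which widened their day 0 spread. Prickle3, a planar cell polarity gene, went from 14.2 ± 1.35 to 4.16 ± 0.403 FPKM, log2 -1.66 ± 0.24.

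**Figure D1:**
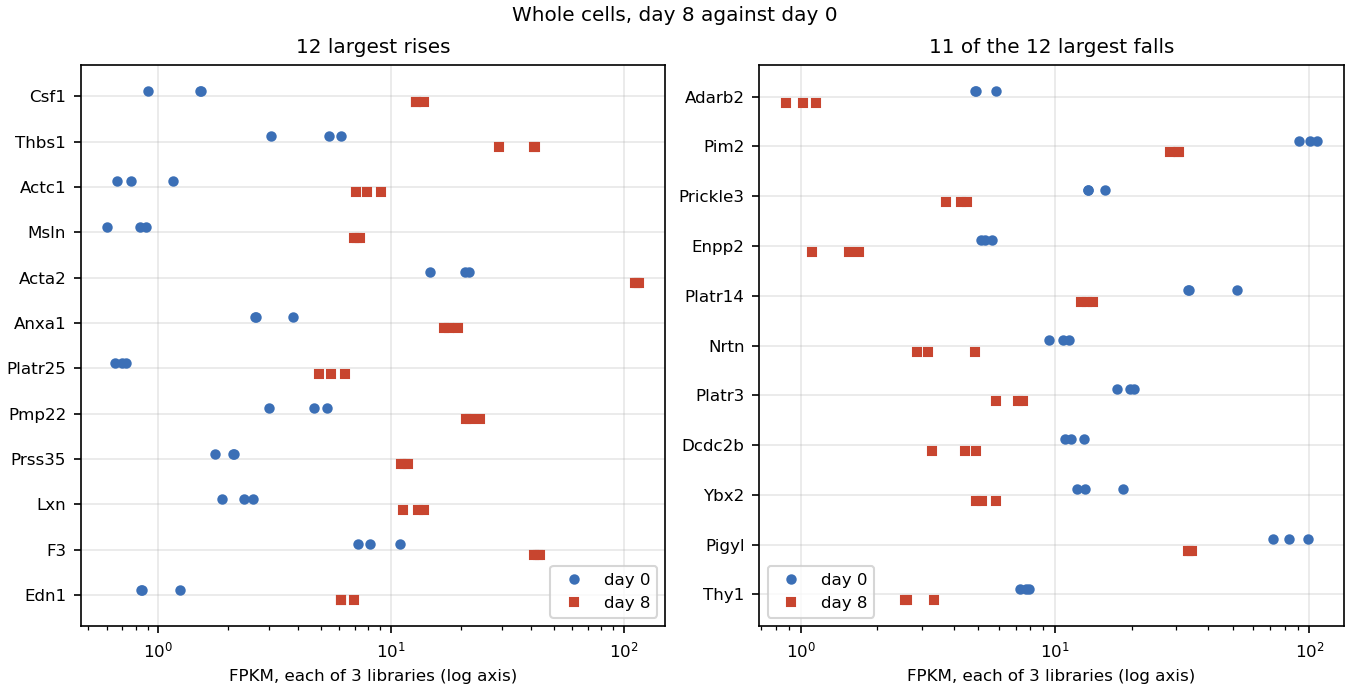
FPKM on a log axis for the 12 genes with the largest rises (left) and 11 of the 12 with the largest falls (right). Each circle is 1 of the 3 day 0 libraries and each square 1 of the 3 day 8 libraries; the 2 colours do not overlap for any gene because the rule that chose the genes required it, and Csf1 went from about 1 to over 12 FPKM.

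The time course showed when these genes moved. Day 8 was compared with day 4 (19.9% of all genes called, 13.2% higher and 6.72% lower) and day 10 with day 8 (8.44% called, 5.2% higher and 3.24% lower), and these contrasts share the day 8 libraries with the main one. Between day 4 and day 8, 11 of the 12 rises were higher and 9 of the 11 falls described were lower by the test. The exceptions were Platr25, Prickle3 and Thy1. The choice of genes with large differences at day 8 favours such passes. Between day 0 and day 4 (6.70% called, 4.88% higher and 1.82% lower), 6 of the 12 rises and 4 of the 11 falls had already passed. At days 4, 8 and 10, Csf1 stood at 2.5 ± 1.18, 13.2 ± 0.64, 21.3 ± 0.369 FPKM, Acta2 at 25.1 ± 5.68, 114 ± 2.12, 174 ± 3.61 FPKM and Msln at 1.91 ± 0.683, 7.15 ± 0.208, 21.9 ± 1.97 FPKM. Each of these means was above the one before it, but the step of Csf1 from day 8 to day 10 did not pass (limma adjusted p = 0.094). Pim2 stood at 59.2 ± 3.61, 29.8 ± 1.31, 8.15 ± 1.4 FPKM on the same days, each mean below the one before. Actc1 alone passed in the opposite direction after day 8, at 1.06 ± 0.5, 8.01 ± 0.972, 3.41 ± 0.55 FPKM on those days. From day 8 to day 10, 5 of the rises and 3 of the falls went further in the same direction by the test.

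**Figure D2:**
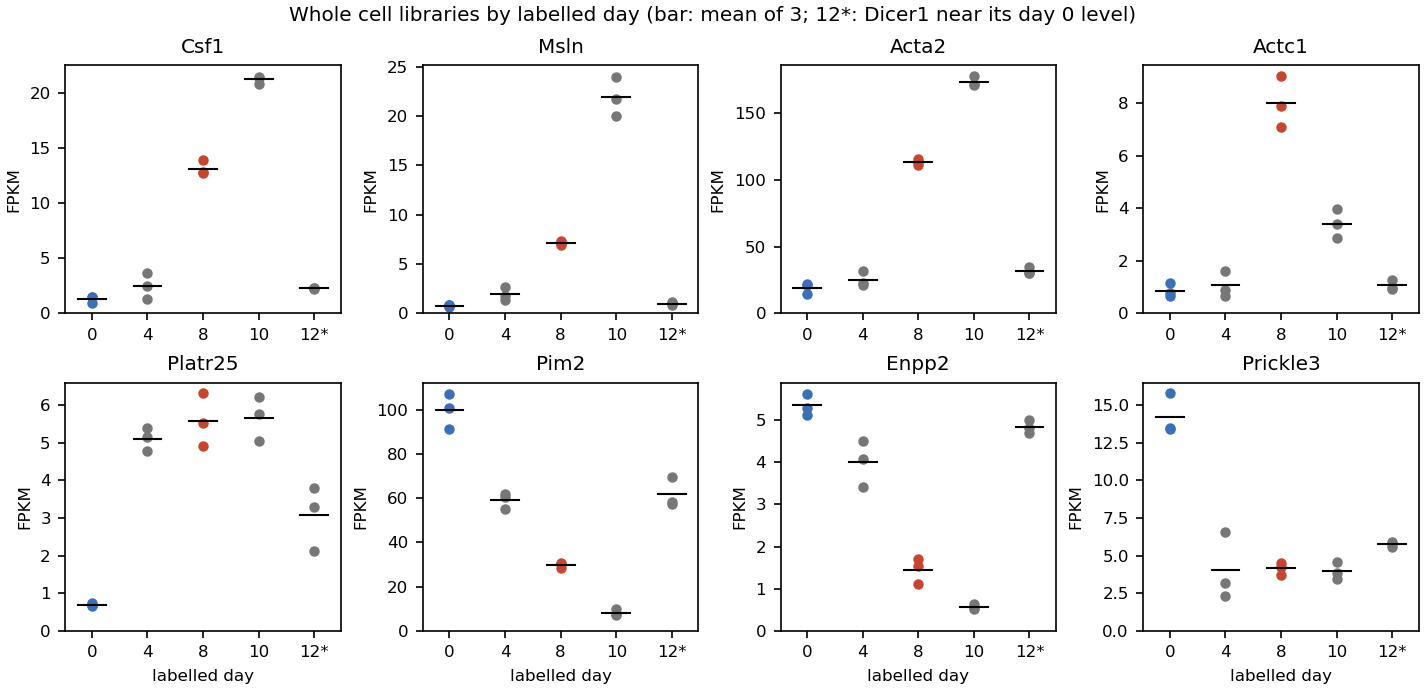
FPKM of 8 genes in each whole-cell library by labelled day, with a bar at the mean of 3; the 12* group holds the libraries labelled day 12, in which Dicer1 was at 14.6 FPKM. Csf1, Msln and Acta2 had higher means at day 10 than at day 8, a step that did not pass the test for Csf1. Actc1 peaked at day 8, and Prickle3 was low and Platr25 high in every group after day 0.

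The libraries labelled day 12 were set beside these values, again against the same day 0 libraries (13.6% of all genes called, 10.2% higher and 3.34% lower). Of the 12 rises, 5 passed as higher than day 0, and of the 11 falls 3 passed as lower and 1, Nrtn, as higher. Prickle3 stood at 4.02 ± 2.26, 4.16 ± 0.403, 3.96 ± 0.554 FPKM on days 4, 8 and 10 and at 5.75 FPKM in the libraries labelled day 12. It was below day 0 in every later whole-cell group, also where Dicer1 was near its day 0 level. On day 0 itself it was at 3.51 FPKM in the cytoplasm and 5.6 FPKM in the nucleus, so the whole-cell day 0 level lay above both fractions. The part of this in its fall was not tested.

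The cytoplasmic libraries of days 0 and 12 are separate libraries that the choice of the 23 genes did not use. There, 32.6% of 17124 genes passed between the days, 16% higher and 16.6% lower. Of the 12 rises 10 were higher in the cytoplasm, and of the 11 falls 8 were lower and 0 higher. Csf1 went from 1.24 ± 0.221 to 18.4 ± 0.395 FPKM in the cytoplasm, Msln from 0.511 ± 0.0356 to 13.7 ± 1.24 FPKM and Lxn from 3.19 ± 0.371 to 31.7 ± 3.08 FPKM. Pigyl fell from 113 ± 4.2 to 14.6 ± 1.47 FPKM. Acta2 rose less there, from 21.1 ± 2.11 to 39.3 ± 1.8 FPKM. Actc1 did not pass, at 0.71 FPKM on day 0 and 0.36 FPKM on day 12, nor did Platr25, Prickle3, Enpp2 and Dcdc2b. In the nucleus, where 36.7% of genes passed (15.1% higher and 21.6% lower), 6 of the 12 rises were higher and 3, Actc1, Acta2 and Pmp22, lower, and 10 of the 11 falls were lower. On day 0 the nuclear libraries held Csf1 at 12.5 ± 7.41 FPKM and Thbs1 at 71.9 ± 48.5 FPKM. They held F3 at 43.7 ± 14.1 FPKM, Acta2 at 120.3 ± 20.2 FPKM, Anxa1 at 27.7 ± 7.04 FPKM and Pmp22 at 44.4 ± 17.6 FPKM. These means were near or above the levels in whole cells of day 8. The libraries spread widely for Csf1 and Thbs1 and less for Acta2 and Anxa1. The cytoplasm of day 0 held 1.24, 3.48, 9.31, 21.1, 4.53 and 7.9 FPKM of these genes, in the same order. Of the other rises, Platr25 in the day 0 nucleus was above its whole-cell day 8 mean too. Actc1, Msln, Prss35, Lxn and Edn1 were below theirs.

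**Figure D3:**
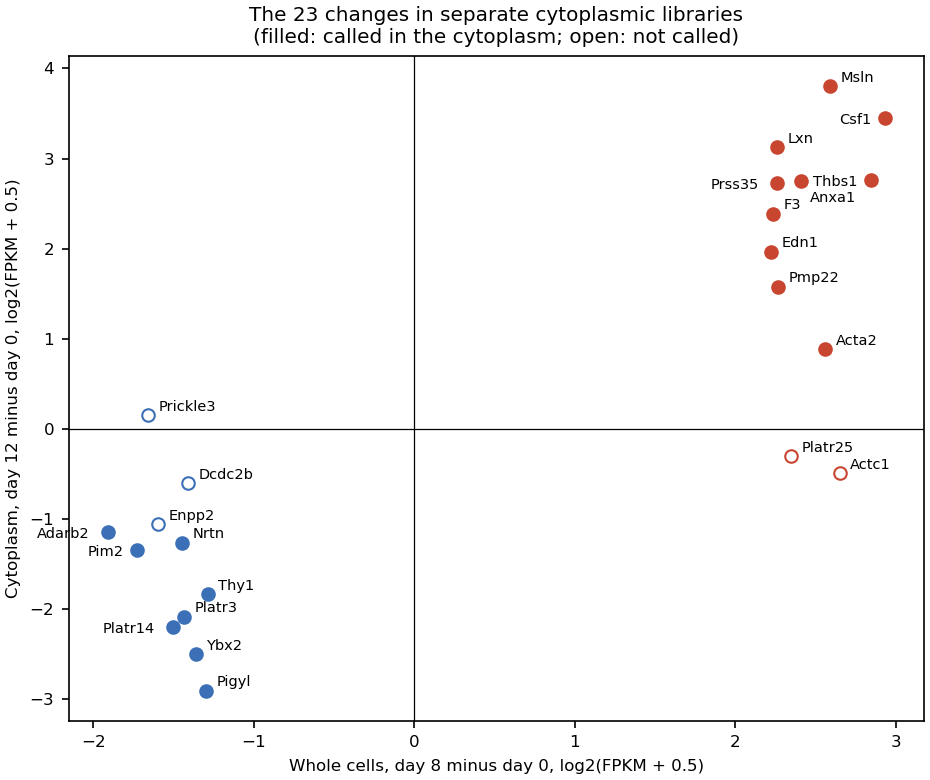
Difference of day 12 from day 0 in the cytoplasm (vertical) against the difference of day 8 from day 0 in whole cells (horizontal), both on the log2(FPKM + 0.5) scale, for the 12 rises and 11 falls described. Filled points passed the test in the cytoplasm; Actc1, at -0.49, lies below 0 without passing.

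Gene lists were then read against the shares for all genes without a near-identical copy, 19.9% higher and 8.95% lower. Counts in brackets give the fewest and the most members called over the alternative settings. No list has a test of its own here, and a count shows no more than its members.

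**Figure D4:**
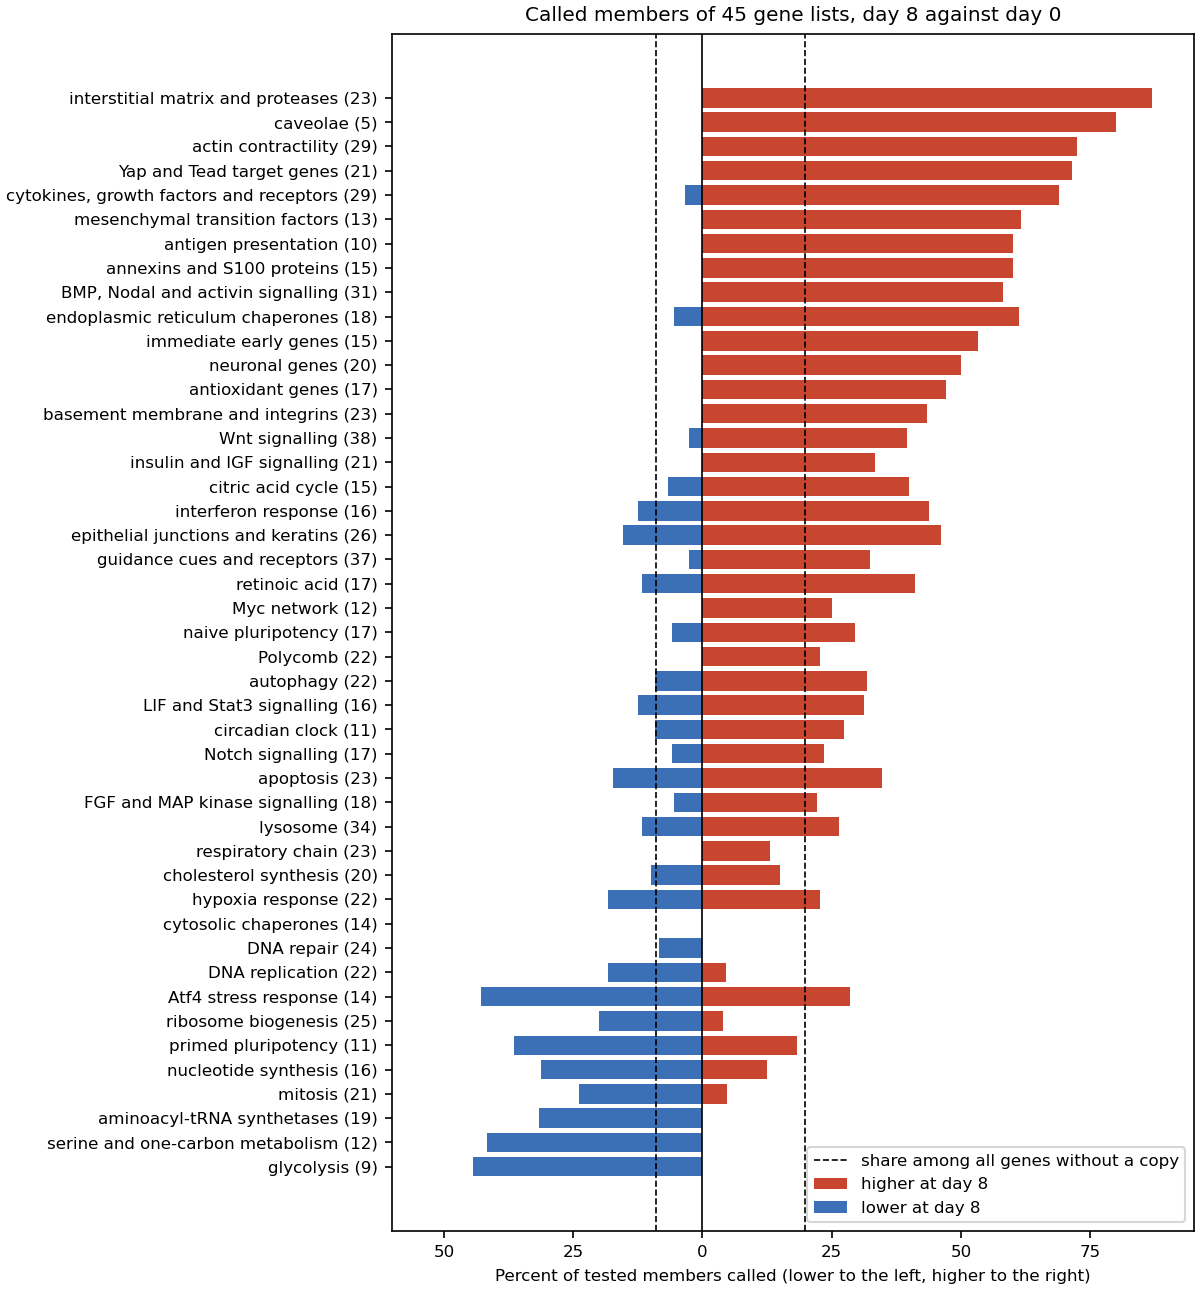
Percent of the tested members of each of 45 gene lists that were called higher (bars to the right) or lower (bars to the left) at day 8, with the number of tested members in brackets and dashed lines at the shares for all genes without a near-identical copy (19.9% and 8.95%). Interstitial matrix, caveolae, actin contractility and Yap and Tead genes have the longest bars to the right, and glycolysis, the Atf4 response and serine metabolism the longest to the left.

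Most genes of the contractile actin cytoskeleton rose at day 8. Such genes encode smooth-muscle and cardiac actins, tropomyosins, calponins and focal adhesion proteins, and many of them are known targets of serum response factor, which binds the CArG box and is activated when free actin runs low. In this list, 21 of 29 tested members rose and 0 fell (20 to 24 and 0 to 1 over the alternatives), with a median of 0.77. That is 72.4% of members against 19.9% of all genes. Acta2, smooth muscle alpha-actin, stood at 14.7, 21.6 and 20.9 FPKM at day 0 and 111, 113 and 116 FPKM at day 8 (log2 2.56 ± 0.15, adjusted p = 1.12e-07). The 3 day 8 libraries differed little among themselves and lay above every day 0 library. Tagln, an actin-binding protein of smooth muscle, stood at 28.5, 38.9 and 35.6 FPKM at day 0 and 118, 129 and 114 FPKM at day 8 (log2 1.8 ± 0.17). Acta1, skeletal alpha-actin, stood at 9.45, 11.5 and 13.6 FPKM at day 0 and 37.8, 38.7 and 37 FPKM at day 8 (log2 1.69 ± 0.11). Vim, the mesenchymal intermediate filament vimentin, stood at 74.5, 83.3 and 88.2 FPKM at day 0 and 345, 324 and 343 FPKM at day 8 (log2 2.04 ± 0.11). All 4 genes had groups that did not overlap. In the libraries labelled day 12, against the same day 0 libraries, the differences were 0.73 for Acta2, 0.82 for Tagln, 0.97 for Acta1 and 0.71 for Vim, and all 4 passed there too. In the separate nuclear libraries, day 12 was lower than day 0 by the test for Acta2 (log2 -0.82, adjusted p = 0.0029), Tagln (log2 -0.64, adjusted p = 0.018) and Acta1 (log2 -1.50, adjusted p = 7.7e-05) and higher for Vim (log2 0.92). Actc1, cardiac alpha-actin and no member of the list, stood at 0.669, 0.762 and 1.16 FPKM at day 0 and 9.03, 7.09 and 7.91 FPKM at day 8 (log2 2.65 ± 0.21). Srf, the factor itself, had means of 20.9 and 21.3 FPKM and did not pass. Des, a muscle intermediate filament gene, was at 4.02 and 3.42 FPKM and did not pass.

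Promoters of these genes were read for a motif that was fixed together with the list. RefSeq promoters (GRCm38.p6, 250 bases before to 50 after the start) were found for 28 of the 32 list genes, in 33 windows. The CArG box, searched on both strands, was in 9 of the 33 windows (27.3%) and in 535 of all 32851 windows (1.63%). It was in 8 genes of the list, 6 of which rose, beside 21 of the 29 tested members of the whole list. The 6 members that rose were picked for display after their values were seen, with Actc1 added; Srf, which did not pass, and Vil1, which was too low to be tested, have a box and are not shown. Each line gives a stretch of 60 bases around the box within the promoter window, 5′ to 3′ on the gene's strand, with the box in capitals.
Actc1 (chr2:114052888-114052947, minus strand): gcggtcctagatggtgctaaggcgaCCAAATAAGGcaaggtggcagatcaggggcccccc
Acta1 (chr8:123894814-123894873, minus strand): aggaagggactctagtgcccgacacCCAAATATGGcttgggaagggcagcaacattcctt
Cnn2 (chr10:79988519-79988578, plus strand): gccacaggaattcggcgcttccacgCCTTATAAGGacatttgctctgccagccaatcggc
Fhl1 (chrX:56779556-56779615, plus strand): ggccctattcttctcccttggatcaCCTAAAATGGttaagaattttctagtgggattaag
Fhl2 (chr1:43196823-43196882, minus strand): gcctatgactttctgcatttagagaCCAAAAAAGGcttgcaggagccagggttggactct
Myl9 (chr2:156775278-156775337, plus strand): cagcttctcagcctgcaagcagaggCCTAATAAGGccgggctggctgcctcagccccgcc
Vcl (chr14:20929148-20929207, plus strand): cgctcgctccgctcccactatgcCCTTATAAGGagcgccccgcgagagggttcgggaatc
The box began 47 bases before the start in Actc1, 73 in Acta1, 56 in Cnn2, 102 in Fhl1, 96 in Fhl2, 161 in Myl9 and 227 in Vcl. A box in this window is a description of the letters there, and binding was not measured. Many list genes are known targets of serum response factor. A share above that of all windows therefore does not bear on the change at day 8.

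Most genes linked to Yap and Tead, the effectors of the Hippo pathway that respond to cell spreading and tension, rose too. Here 15 of 21 tested members rose and 0 fell (13 to 18 and 0 over the alternatives), with a median of 0.86. That is 71.4% of members. F3, described above, was the largest of them. Axl, a receptor tyrosine kinase gene, stood at 1.27, 1.5 and 1.58 FPKM at day 0 and 5.93, 6.36 and 6.58 FPKM at day 8 (log2 1.8 ± 0.19, adjusted p = 1.24e-05). Fjx1, a secreted four-jointed relative, stood at 2.94, 3.76 and 3.99 FPKM at day 0 and 8.75, 9.87 and 8.74 FPKM at day 8 (log2 1.25 ± 0.16). Ccn1, a matricellular protein and a widely used readout of Yap, stood at 51.2, 67.1 and 58.3 FPKM at day 0 and 135, 143 and 132 FPKM at day 8 (log2 1.22 ± 0.11). None of these day 8 values fell into the day 0 range. Yap1, the co-activator itself, had means of 18.3 and 21.6 FPKM and did not pass.

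The motif of Tead factors, GGAATG on either strand, was in 12 of 17 promoter windows of the 14 list genes with one (70.6%) and in 4817 of all 32851 windows (14.7%). It was in 10 genes, 7 of which rose, beside 15 of the 21 tested members of the whole list. These 7, chosen for display after their values were seen, are shown in the same way, with the motif in capitals.
Ankrd1 (chr19:36120022-36120081, minus strand): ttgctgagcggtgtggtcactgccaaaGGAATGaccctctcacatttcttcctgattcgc
Axl (chr7:25788924-25788983, minus strand): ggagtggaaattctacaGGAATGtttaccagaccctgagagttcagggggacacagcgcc
Ccn1 (chr3:145650056-145650115, minus strand): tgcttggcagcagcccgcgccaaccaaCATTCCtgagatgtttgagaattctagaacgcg
Crim1 (chr17:78200142-78200201, plus strand): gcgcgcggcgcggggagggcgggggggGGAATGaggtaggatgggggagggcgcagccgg
Ptpn14 (chr1:189728095-189728154, plus strand): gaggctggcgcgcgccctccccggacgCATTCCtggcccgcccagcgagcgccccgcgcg
Tead3 (chr17:28350955-28351014, minus strand): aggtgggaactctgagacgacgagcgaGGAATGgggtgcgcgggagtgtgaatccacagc
Wwtr1 (chr3:57576014-57576073, minus strand): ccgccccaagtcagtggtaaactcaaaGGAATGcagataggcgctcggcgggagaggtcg
In Ccn1 the motif lies on the other strand and begins 103 bases before the start, and in Axl it begins 233 bases before it. Since any window has a fair chance of holding 6 given bases, the share of all windows stands beside the list's own. The list was made of genes linked to Yap and Tead. A share above that of all windows therefore does not bear on the change at day 8.

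Both classes of extracellular matrix genes examined had rises and no falls. Of interstitial matrix and protease genes, 20 of 23 tested members rose and 0 fell (16 to 20 and 0 over the alternatives), with a median of 0.85, 87% of members. Thbs1, described above, is one of them. Dcn, the small proteoglycan decorin, went from 0.152 ± 0.0296 to 2.29 ± 0.232 FPKM, log2 2.09 ± 0.23, and Lox, the collagen cross-linking enzyme, from 0.254 ± 0.12 to 1.63 ± 0.233 FPKM, log2 1.5 ± 0.16. Both stayed low at day 8, and with a pseudocount of 0.1 their differences became 3.25 and 2.33. Of basement membrane and integrin genes, 10 of 23 tested members rose and 0 fell (9 to 15 and 0 to 2 over the alternatives), with a median of 0.46, 43.5% of members. Itga5, the fibronectin receptor subunit, stood at 9.21, 11.6 and 11.7 FPKM at day 0 and 30.8, 26.5 and 27.1 FPKM at day 8 (log2 1.35 ± 0.15). Sparc, a collagen-binding matricellular protein, stood at 99.7, 98.7 and 93.9 FPKM at day 0 and 218, 222 and 211 FPKM at day 8 (log2 1.15 ± 0.13). The vitronectin receptor subunit Itgav (2.09 ± 0.213 to 5.31 ± 0.629 FPKM, log2 1.17 ± 0.23) and the laminin receptor subunit Itgb4 (1.51 ± 0.175 to 4 ± 0.432 FPKM, log2 1.16 ± 0.22) rose as well. Fn1, fibronectin, had means of 87.8 and 72.1 FPKM and did not pass.

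Genes of caveolae, small invaginations of the plasma membrane that flatten under stretch, were among the members with the largest differences. In this short list 4 of 5 tested members rose and 0 fell (4 to 5 and 0 over the alternatives), with a median of 1.51. Cav1, the scaffold caveolin 1, stood at 0.314, 0.486 and 0.495 FPKM at day 0 and 3.35, 3.09 and 3.59 FPKM at day 8 (log2 2.05 ± 0.12). Ehd2 (1.04 ± 0.289 to 3.89 ± 0.061 FPKM, log2 1.53 ± 0.18), Cavin3 (1.25 ± 0.23 to 4.55 ± 1.11 FPKM, log2 1.51 ± 0.33) and Cavin1 (12.7 ± 1.61 to 25.4 ± 1 FPKM, log2 0.98 ± 0.1), which encode proteins of the caveolar neck and coat, rose with it. All but Cavin1 started near or below 1.3 FPKM. Of annexin and S100 genes, which encode calcium-binding proteins of membranes and cytoskeleton, 9 of 15 tested members rose and 0 fell (6 to 12 and 0 over the alternatives), with a median of 0.59. Anxa5, which binds exposed phosphatidylserine, stood at 6.38, 7.16 and 7.79 FPKM at day 0 and 23.5, 23.2 and 29.1 FPKM at day 8 (log2 1.75 ± 0.17), and Anxa3 at 9.9, 15.7 and 12.8 FPKM at day 0 and 38, 44.3 and 44.6 FPKM at day 8 (log2 1.71 ± 0.16). In both genes the groups lay well apart. In the libraries labelled day 12, Cavin1 stood at 24 FPKM and Anxa5 at 15.9 FPKM, and both passed as higher than day 0 (log2 0.90 and 1.11).

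Epithelial junction and keratin genes moved both ways. Here 12 of 26 tested members rose and 4 fell (8 to 12 and 2 to 5 over the alternatives, 2 fell without day 0 replicate 2 or day 8 replicates 1, 2 or 3), with a median of 0.29. Krt18, a simple-epithelium keratin gene, stood at 63, 80.9 and 82.6 FPKM at day 0 and 192, 217 and 211 FPKM at day 8 (log2 1.46 ± 0.1), and Krt19 at 17.3, 23.2 and 22.5 FPKM at day 0 and 36.1, 36.1 and 39 FPKM at day 8 (log2 0.82 ± 0.14). Both were also higher than day 0 in the libraries labelled day 12, Krt18 at 168 FPKM (log2 1.16) and Krt19 at 50.9 FPKM (log2 1.27), where Krt19 was above its day 8 level. Crb3, an apical polarity protein, fell from 19.9, 16.3 and 16 FPKM at day 0 to 9.34, 8.88 and 8.47 FPKM at day 8 (log2 -0.92 ± 0.18). Cdh1, E-cadherin, had means of 114 and 116 FPKM and did not pass. Of mesenchymal transition factors, 8 of 13 tested members rose and 0 fell (6 to 8 and 0 to 1 over the alternatives), with a median of 0.83. Tgfb2, a ligand that drives this transition in epithelia, went from 0.758 ± 0.168 to 3.96 ± 0.188 FPKM, log2 1.83 ± 0.13, the transcription factor gene Ets1 from 0.918 ± 0.124 to 3.59 ± 0.157 FPKM, log2 1.53 ± 0.13, Cdh2 (N-cadherin) from 2 ± 0.312 to 5.92 ± 0.832 FPKM, log2 1.36 ± 0.19 and Zeb1, a known microRNA target, from 0.733 ± 0.0503 to 2.14 ± 0.307 FPKM, log2 1.09 ± 0.15. Each of these 4 stayed under 7 FPKM at day 8, and Snai1, a key repressor of E-cadherin, was at 1.51 and 1.94 FPKM and did not pass.

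Markers of other cell types were measured beside these groups. The 9 fibroblast markers summed to 10.4 to 11.1 FPKM at day 0 and 12.1 to 13.5 FPKM at day 8. Thy1 held most of the day 0 sum and fell from 7.62 to 2.85 FPKM, while 5 others rose: Col1a1 (1.99 to 4.71 FPKM), Dcn (0.15 to 2.29 FPKM), Col1a2 (0.59 to 1.16 FPKM), Pdgfrb (0.14 to 0.57 FPKM) and S100a4 (0.18 to 1.11 FPKM). The call of S100a4 was weak (limma adjusted p = 0.0428). It ended when any single library of day 0 or day 8 was left out, and after quantile normalization. Col1a1 and Col1a2 were also higher than day 0 in the libraries labelled day 12 (log2 0.86 and 0.61), where Dcn, Pdgfrb and S100a4 did not pass. In the nucleus, day 12 was lower than day 0 for Col1a1 and Col1a2 (log2 -1.87 and -3.75). In the cytoplasm neither collagen gene passed, and Pdgfrb was higher (log2 1.04). Col3a1, Lum and Postn were too low to be tested, with means of 0.03, 0 and 0.05 FPKM at day 0 and of 0.18, 0.04 and 0.10 FPKM at day 8. The 10 endoderm markers summed to 2.77 to 3.44 FPKM at day 0 and 3.59 to 4.91 FPKM at day 8, with 1 member, Gata4, higher, and Afp and Ttr near 0. The 8 mesoderm markers summed to 4.03 to 5.49 FPKM at day 0 and 7.34 to 8.37 FPKM at day 8, with 2 higher. The 9 trophoblast markers summed to 146 to 195 FPKM at day 0 and 409.6 to 459.6 FPKM at day 8, most of it Krt8, which has a near-identical copy, and Krt18. Tfap2c had means of 23.4 and 24.5 FPKM and did not pass, Gata3 (0.29 to 0.90 FPKM) and Krt7 (1.34 to 2.00 FPKM) rose, and Cdx2 was at 0.20 and 0.61 FPKM and Elf5 at 0.02 FPKM in both. The 6 endothelial markers summed to 15.9 to 17.7 FPKM at day 0 and 28.6 to 31.4 FPKM at day 8, with Tek, Pecam1 and Kdr higher and Emcn and Tie1 under 0.1 FPKM. The part of such cells in the matrix, actin, junction and growth factor results was not tested.

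Among ligands and receptors of growth factor signalling, rises outnumbered falls. In cytokine and growth factor genes, 20 of 29 tested members rose and 1 fell (15 to 22 and 0 to 2 over the alternatives, 0 fell without day 0 replicates 1, 2 or 3 or day 8 replicates 1, 2 or 3), with a median of 0.74, 69% of members. Csf1 led them. Cxcl10, a chemokine of the interferon response, went from 0.393 ± 0.0505 to 2.39 ± 0.436 FPKM, log2 1.68 ± 0.22, and Pdgfc, a platelet-derived growth factor, from 3.3 ± 0.161 to 8.62 ± 0.551 FPKM, log2 1.26 ± 0.16. Both were higher in each day 8 library than in any day 0 library. Ccl20, a further chemokine gene, went from 0.11 ± 0.0778 to 1.2 ± 0.351 FPKM, log2 1.46 ± 0.21, and its difference was 2.67 with a pseudocount of 0.1 and 0.98 with a pseudocount of 1. Blood and macrophage markers, which could mark cells that respond to Csf1, summed to 11.3 to 14.8 FPKM at day 0 and 13.5 to 17.3 FPKM at day 8. Cd68 held most of this, with means of 9.06 and 11.1 FPKM, and did not pass. Cd14 rose from 0.27 to 1.23 FPKM (log2 1.17, adjusted p = 0.00027). Lyz2 and Adgre1 were listed at 0 in all 6 libraries, and Csf1r had means of 3.50 and 2.68 FPKM and did not pass.

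The BMP, Nodal and activin pathway, in which ligands act through paired serine kinase receptors and Smad proteins, had rises and no falls. Here 18 of 31 tested members rose and 0 fell (15 to 20 and 0 over the alternatives), with a median of 0.52, 58.1% of members. The Id genes, which encode inhibitors of helix-loop-helix factors, are the classical targets of BMP signals. Id1 stood at 21.5, 27.1 and 24 FPKM at day 0 and 58.2, 56.5 and 54.8 FPKM at day 8 (log2 1.21 ± 0.16, adjusted p = 7.45e-05), and Id2 at 15.1, 19.6 and 18.4 FPKM at day 0 and 48.7, 49.7 and 42.2 FPKM at day 8 (log2 1.38 ± 0.11). The values of the 2 days did not overlap for either. Bmp1, a metalloprotease that processes collagens and frees BMP ligands, went from 2.5 ± 0.423 to 7.91 ± 0.293 FPKM, log2 1.5 ± 0.14. Smad6, an inhibitory Smad, went from 1.32 ± 0.138 to 3.69 ± 0.826 FPKM, log2 1.19 ± 0.16. Smad4, the shared mediator, had means of 17.9 and 18.7 FPKM and Bmp4, the main ligand in serum cultures, 3.19 and 3.58 FPKM, and neither passed.

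In Wnt signalling, several ligands and feedback genes rose. In this list 15 of 38 tested members rose and 1 fell (14 to 16 and 1 to 4 over the alternatives), with a median of 0.32, 39.5% of members. Wnt9a stood at 0.762, 0.767 and 0.947 FPKM at day 0 and 4.07, 4.61 and 4.07 FPKM at day 8 (log2 1.84 ± 0.12), and Wnt3, a ligand of the canonical pathway, at 0.497, 0.816 and 0.845 FPKM at day 0 and 4.1, 3.97 and 3.3 FPKM at day 8 (log2 1.82 ± 0.15). Notum, a secreted enzyme that inactivates Wnt proteins, stood at 3.14, 3.21 and 3.54 FPKM at day 0 and 13.1, 13.6 and 11.4 FPKM at day 8 (log2 1.8 ± 0.17). Sp5, a transcription factor that Wnt signals induce, stood at 0.888, 1.51 and 1.5 FPKM at day 0 and 4.17, 6.39 and 4.97 FPKM at day 8 (log2 1.66 ± 0.2). In all 4 genes the lowest day 8 library was above the highest of day 0. Nkd2, an inhibitor of the pathway, fell from 1.6 ± 0.268 to 0.787 ± 0.077 FPKM (log2 -0.7 ± 0.16). Ctnnb1, beta-catenin, had means of 109 and 123 FPKM and Axin2, a common readout of the canonical pathway, 1.85 and 1.53 FPKM, and neither passed.

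Signals that matter for self-renewal were mixed. LIF acts through Lifr and Il6st on Jak kinases and Stat3, and in these genes 5 of 16 tested members rose and 2 fell (4 to 6 and 2 over the alternatives), with a median of 0.21. Jak2 went from 1.1 ± 0.104 to 2.9 ± 0.0745 FPKM, log2 1.09 ± 0.15 and Lif itself from 1.58 ± 0.164 to 3.77 ± 0.233 FPKM, log2 1.04 ± 0.16, while Pim2, described above, fell. Stat3 had means of 9.41 and 10.6 FPKM and Socs3, its feedback inhibitor, 48.6 and 53.6 FPKM, and neither passed. In FGF and MAP kinase genes, which drive exit from self-renewal, 4 of 18 tested members rose and 1 fell (3 to 8 and 1 to 4 over the alternatives), with a median of 0.18. Those are 22.2% and 5.56% of members, near the shares of all genes. The phosphatase gene Dusp5 went from 7.47 ± 0.695 to 16.1 ± 0.939 FPKM, log2 1.06 ± 0.11, Spred1 from 12.2 ± 0.67 to 18.9 ± 1.26 FPKM, log2 0.61 ± 0.08, and Spry1, a feedback inhibitor of receptor tyrosine kinases, fell from 9.05 ± 0.211 to 4.54 ± 0.677 FPKM, log2 -0.93 ± 0.1. These are inhibitors of the same pathway and they did not move in 1 direction.

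Immediate early genes, which respond to growth factors within minutes, had rises and no falls. Here 8 of 15 tested members rose and 0 fell (7 to 9 and 0 over the alternatives), with a median of 0.54, 53.3% of members. Btg2, an antiproliferative gene that is also a p53 target, stood at 14.8, 18.3 and 16 FPKM at day 0 and 49.2, 52 and 47.1 FPKM at day 8 (log2 1.57 ± 0.09, adjusted p = 7.53e-08). Jun, a subunit of the AP-1 factor, stood at 10.1, 10.6 and 10.3 FPKM at day 0 and 21.3, 23 and 22.9 FPKM at day 8 (log2 1.08 ± 0.11). Its partners Fosl2 (1.5 ± 0.126 to 4.43 ± 0.57 FPKM, log2 1.3 ± 0.16) and Jund (27.1 ± 0.612 to 51.1 ± 3.48 FPKM, log2 0.9 ± 0.11) rose as well, while Fos, at 9.36 and 11.8 FPKM, did not pass. Of insulin and IGF genes, 7 of 21 tested members rose and 0 fell (5 to 10 and 0 over the alternatives), with a median of 0.39. Igf2, the fetal growth factor, went from 4.03 ± 0.87 to 10.4 ± 0.508 FPKM, log2 1.29 ± 0.14, and the binding protein genes Igfbp7 from 1.04 ± 0.0297 to 2.64 ± 0.278 FPKM, log2 1.02 ± 0.21 and Igfbp3 from 14.8 ± 2.44 to 26.7 ± 1.85 FPKM, log2 0.85 ± 0.12.

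Genes of the naive and the primed state of pluripotency were listed apart. Of naive genes, 5 of 17 tested members rose and 1 fell (3 to 5 and 1 to 4 over the alternatives), with a median of -0.00. Klf2, a naive-state transcription factor, stood at 116, 109.6 and 118 FPKM at day 0 and 253, 255 and 229 FPKM at day 8 (log2 1.1 ± 0.13, adjusted p = 3.98e-05). Tbx3 (7.48 ± 1.12 to 11.8 ± 0.182 FPKM, log2 0.63 ± 0.11) and Prdm14 (6.97 ± 0.51 to 11 ± 0.606 FPKM, log2 0.63 ± 0.1) rose, and Utf1 fell from 505 ± 37.1 to 335 ± 21 FPKM, log2 -0.59 ± 0.12. Of primed genes, 2 of 11 tested members rose and 4 fell (0 to 2 and 4 over the alternatives, 0 rose without day 0 replicate 1 or day 8 replicate 2), with a median of -0.17, and this fall was 36.4% of members against 8.95% of all genes. Otx2, which marks the exit from the naive state, stood at 13.7, 12 and 11.5 FPKM at day 0 and 5.16, 4.77 and 4.89 FPKM at day 8 (log2 -1.24 ± 0.1). Dnmt3b, a de novo DNA methyltransferase, stood at 111, 149 and 142 FPKM at day 0 and 73.2, 72.6 and 75.7 FPKM at day 8 (log2 -0.84 ± 0.15). Fgf5, the standard marker of primed cells, went from 1.3 ± 0.0542 to 0.546 ± 0.113 FPKM, log2 -0.78 ± 0.17. All day 8 libraries lay below all day 0 libraries for these genes. Whole cells of day 0 also stood apart from other groups in them. Otx2 was at 5.03 FPKM in the cytoplasm and 5.09 FPKM in the nucleus on day 0 and at 4.98 FPKM in the libraries labelled day 12. Dnmt3b was at 49.0, 16.9 and 70.7 FPKM in the same groups, and Fgf5 at 0.39, 0.19 and 0.51 FPKM. The part of this in the falls was not tested.

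Glycolysis genes had falls and no rises, and hypoxia response genes moved both ways. In glycolysis, 8 of the 17 matched members have near-identical copies and were left out. Of the rest, 0 of 9 tested members rose and 4 fell (0 and 2 to 6 over the alternatives, 2 fell without day 0 replicate 1), with a median of -0.30, 44.4% of members. Aldoc, an aldolase, stood at 14, 11.4 and 13.1 FPKM at day 0 and 7.4, 7.04 and 7.62 FPKM at day 8 (log2 -0.76 ± 0.11), and Pfkp, a phosphofructokinase gene, went from 20.7 ± 1.59 to 12.5 ± 0.838 FPKM, log2 -0.71 ± 0.08. Neither gene's groups overlapped. The glucose transporter gene Slc2a1 had means of 264 and 245 FPKM and did not pass. Of hypoxia response genes, many of which Hif factors induce, 5 of 22 tested members rose and 4 fell (4 to 7 and 4 to 8 over the alternatives), with a median of 0.05. Slc16a3, a lactate exporter, fell from 40.6 ± 1.95 to 23.4 ± 0.852 FPKM, log2 -0.78 ± 0.09 and Ankrd37 from 2.52 ± 0.296 to 1.25 ± 0.166 FPKM, log2 -0.79 ± 0.19, while Pfkfb3, which makes the activator of phosphofructokinase, rose from 3.08 ± 0.544 to 6.12 ± 0.35 FPKM, log2 0.9 ± 0.23. Hif1a had means of 22.3 and 27.0 FPKM and did not pass. The core of the hypoxia response element, ACGTG on either strand, was in 13 of 28 promoter windows of glycolysis genes (46.4%), in 17 of 28 of hypoxia genes (60.7%) and in 6447 of all 32851 windows (19.6%). These shares describe the lists and do not bear on the change at day 8.

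Most genes of mitochondrial energy metabolism did not pass. Of citric acid cycle genes, 6 of 15 tested members rose and 1 fell (3 to 6 and 0 to 1 over the alternatives, 3 rose without day 8 replicate 2; 0 fell without day 0 replicates 1, 2 or 3 or day 8 replicates 1 or 3), with a median of 0.13. That is 40.0% of members higher, against 19.9% of all genes, and only 3 members rose after median-of-ratios scaling. Cs, citrate synthase, stood at 122, 126 and 141 FPKM at day 0 and 192, 194 and 195 FPKM at day 8 (log2 0.58 ± 0.07), and Idh2 went from 37.4 ± 3.91 to 55.8 ± 1.84 FPKM, log2 0.58 ± 0.09 and Sucla2 from 13.8 ± 0.536 to 19.6 ± 0.207 FPKM, log2 0.49 ± 0.1. Of respiratory chain subunits, 3 of 23 tested members rose and 0 fell (2 to 6 and 0 to 1 over the alternatives), with a median of 0.09, and the 13% that rose are below the share of all genes. Cox7a2, a subunit of cytochrome c oxidase, stood at 51.7, 52.6 and 41 FPKM at day 0 and 131, 124 and 121 FPKM at day 8 (log2 1.37 ± 0.21). Cox7a2 stood at 184 ± 78.1, 125 ± 5.05, 111 ± 4.49 FPKM on days 4, 8 and 10 and at 125 FPKM in the libraries labelled day 12. On day 0 it was at 98.6 FPKM in the cytoplasm and 165 FPKM in the nucleus, so whole cells of day 0 were the lowest of these groups.

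**Figure D5:**
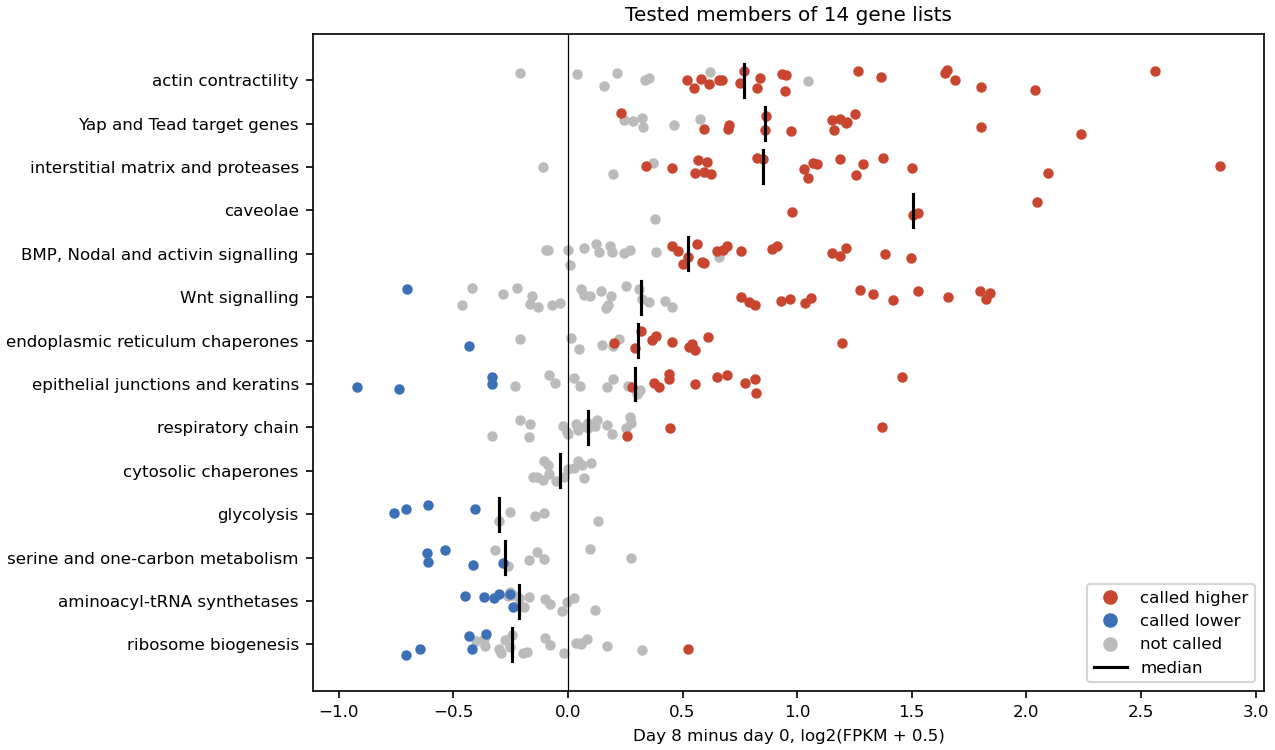
Difference of day 8 from day 0 on the log2(FPKM + 0.5) scale for every tested member without a near-identical copy in 14 of the lists; red and blue points passed the test as higher and lower, grey points did not, and black bars are medians. Caveolae, Yap and Tead genes and interstitial matrix have the highest medians, cytosolic chaperones lie close to 0, and glycolysis, serine metabolism, tRNA synthetases and ribosome biogenesis have medians below 0.

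Genes of amino acid, nucleotide and protein synthesis had more falls than rises. Serine and one-carbon metabolism supplies methyl groups and nucleotides, and in it 0 of 12 tested members rose and 5 fell (0 and 4 to 7 over the alternatives), with a median of -0.27. Shmt1 went from 29.1 ± 2.09 to 18.9 ± 1.44 FPKM, log2 -0.61 ± 0.09, Psph, the last enzyme of serine synthesis, from 17.5 ± 0.513 to 11.3 ± 1.3 FPKM, log2 -0.61 ± 0.16, and Mthfd2 from 33.5 ± 3.52 to 23 ± 2.41 FPKM, log2 -0.54 ± 0.1. Of nucleotide synthesis genes, 2 of 16 tested members rose and 5 fell (1 to 3 and 5 to 7 over the alternatives, 1 rose without day 0 replicates 1, 2 or 3 or day 8 replicates 1 or 2), with a median of -0.15. Dhodh, the mitochondrial enzyme of pyrimidine synthesis, stood at 8.3, 8.03 and 7.7 FPKM at day 0 and 4.5, 4.68 and 4.09 FPKM at day 8 (log2 -0.79 ± 0.09), and Pfas and Prps1, of purine and ribose phosphate synthesis, went from 22.3 ± 1.38 to 15.5 ± 2.14 FPKM, log2 -0.52 ± 0.12, and from 97.6 ± 6.63 to 68.4 ± 1.53 FPKM, log2 -0.51 ± 0.07. Of aminoacyl-tRNA synthetases, which charge tRNAs, 0 of 19 tested members rose and 6 fell (0 and 4 to 10 over the alternatives), with a median of -0.21. Cars went from 39.3 ± 1.71 to 28.7 ± 1.35 FPKM, log2 -0.45 ± 0.08 and Yars from 24.3 ± 0.54 to 19.7 ± 0.254 FPKM, log2 -0.3 ± 0.06. Of ribosome biogenesis genes, 1 of 25 tested members rose and 5 fell (1 to 3 and 3 to 12 over the alternatives, 3 fell without day 0 replicate 3 or day 8 replicate 3), with a median of -0.24. Fbl, the methyltransferase fibrillarin of the nucleolus, stood at 286, 292 and 324 FPKM at day 0 and 171, 200.5 and 181 FPKM at day 8 (log2 -0.71 ± 0.11), Nop16 went from 43.1 ± 1.96 to 27.3 ± 1.7 FPKM, log2 -0.65 ± 0.15, and Tsr1 rose from 30.6 ± 1.37 to 44.2 ± 3.55 FPKM, log2 0.52 ± 0.12. Of Myc network genes, 3 of 12 tested members rose and 0 fell (2 to 4 and 0 to 1 over the alternatives), with a median of 0.06. That is 25% of members higher, not far from the 19.9% of all genes without a near-identical copy. The count is therefore no result about the group. The call of Mlx, 1 of the 3, was weak (limma adjusted p = 0.0456). It ended when any single library of day 0 or day 8 was left out, and after median-of-ratios scaling or quantile normalization. Myc, a known driver of the synthesis genes above, had means of 20.2 and 19.0 FPKM and did not pass. Mxd4, an antagonist of Myc, rose from 0.571 ± 0.163 to 2.29 ± 0.313 FPKM, log2 1.39 ± 0.16. The part of Myc and Mxd4 in the falls was not tested.

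Genes of the Atf4 response, which amino acid shortage and endoplasmic reticulum stress induce, moved both ways. Here 4 of 14 tested members rose and 6 fell (3 to 5 and 5 to 7 over the alternatives), with a median of -0.13. Nupr1 stood at 10.1, 9.18 and 9.82 FPKM at day 0 and 5.02, 4.58 and 3.84 FPKM at day 8 (log2 -1.04 ± 0.15), and Chac1, which degrades glutathione, at 13, 17.1 and 16.2 FPKM at day 0 and 8.93, 8.56 and 8.81 FPKM at day 8 (log2 -0.77 ± 0.15). Both fell without overlap between the days. The factor genes Atf3 (3.02 ± 0.783 to 6.91 ± 1.08 FPKM, log2 1.09 ± 0.2) and Atf5 (13.7 ± 2.4 to 24 ± 0.677 FPKM, log2 0.8 ± 0.17) rose, and Atf4 itself, at 144 and 126 FPKM, did not pass. Chaperones of the endoplasmic reticulum, which fold secreted proteins, mostly rose, and 11 of 18 tested members rose and 1 fell (8 to 11 and 0 to 1 over the alternatives, 0 fell without day 0 replicate 2 or day 8 replicate 3), with a median of 0.31, 61.1% of members. Dnajb9 stood at 5.9, 6.68 and 5.64 FPKM at day 0 and 15.1, 15.2 and 13.3 FPKM at day 8 (log2 1.2 ± 0.12), Dnajb11 went from 18.3 ± 1.77 to 28.2 ± 1.62 FPKM, log2 0.61 ± 0.09 and Pdia3, a disulfide isomerase, from 144 ± 16.5 to 211 ± 11.7 FPKM, log2 0.55 ± 0.1. Of cytosolic chaperones, 0 of 14 tested members rose and 0 fell (0 to 1 and 0 to 2 over the alternatives), with a median of -0.03; by limma 0 members passed, 0 of the 14 had an unadjusted p under 0.05, and their differences ran from -0.15 to 0.10.

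Most cell cycle genes did not pass. Of mitosis genes, 1 of 21 tested members rose and 5 fell (1 and 3 to 8 over the alternatives, 3 fell without day 0 replicate 1 or day 8 replicates 1 or 3), with a median of -0.13. Top2a, the topoisomerase of dividing cells, stood at 112, 103 and 107 FPKM at day 0 and 77.6, 61.4 and 84.6 FPKM at day 8 (log2 -0.53 ± 0.11), the kinase gene Aurka went from 79.6 ± 2.73 to 61 ± 4.91 FPKM, log2 -0.38 ± 0.07 and the kinesin gene Kif23 rose from 27.6 ± 0.596 to 43 ± 3.59 FPKM, log2 0.63 ± 0.1. Of DNA replication genes, 1 of 22 tested members rose and 4 fell (0 to 1 and 2 to 10 over the alternatives, 0 rose without day 0 replicates 2 or 3 or day 8 replicates 1 or 2; 2 fell without day 0 replicates 2 or 3 or day 8 replicate 2), with a median of -0.18, with Gins3, a subunit of the replicative helicase, going from 4.7 ± 0.145 to 3.41 ± 0.384 FPKM, log2 -0.41 ± 0.1. Of DNA repair genes, 0 of 24 tested members rose and 2 fell (0 to 1 and 0 to 9 over the alternatives, 0 fell without day 0 replicate 1 or day 8 replicates 1 or 2; 1 fell without day 0 replicate 3), with a median of -0.09. The 8.33% of repair genes that fell was near the 8.95% of all genes. The calls of the repair genes ended in at least 1 alternative each. Of apoptosis genes, 8 of 23 tested members rose and 4 fell (6 to 11 and 4 to 7 over the alternatives), with a median of 0.31. Bcl2l11, the death promoter Bim and a known microRNA target, stood at 5.54, 5.31 and 5.96 FPKM at day 0 and 10.7, 10.7 and 11.7 FPKM at day 8 (log2 0.92 ± 0.13), and Bcl2l1, the survival factor Bcl-xL, at 10.3, 11.2 and 11.4 FPKM at day 0 and 20.0, 21.2 and 18.8 FPKM at day 8 (log2 0.84 ± 0.12). Bok, a Bax-like gene, fell from 10.6 ± 0.688 to 5.11 ± 0.712 FPKM, log2 -1.0 ± 0.11. Promoters and inhibitors of cell death thus rose side by side.

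Genes of antigen presentation and of the interferon response were examined last. Of antigen presentation genes, 6 of 10 tested members rose and 0 fell (5 to 7 and 0 over the alternatives), with a median of 0.80, 60.0% of members. Erap1, which trims peptides for MHC class I, stood at 2.06, 3.04 and 2.14 FPKM at day 0 and 6.13, 5.96 and 6.71 FPKM at day 8 (log2 1.23 ± 0.18), Tapbp, the loading chaperone tapasin, at 11.7, 11.1 and 11.9 FPKM at day 0 and 25.7, 26.8 and 27.4 FPKM at day 8 (log2 1.16 ± 0.08), and Tap1 and Psmb8 went from 1.22 ± 0.0325 to 2.73 ± 0.396 FPKM, log2 0.9 ± 0.13, and from 1.68 ± 0.138 to 3.65 ± 0.644 FPKM, log2 0.92 ± 0.16. Of interferon response genes, 7 of 16 tested members rose and 2 fell (4 to 10 and 2 to 4 over the alternatives, 4 rose without day 0 replicates 1, 2 or 3 or day 8 replicate 2), with a median of 0.37. Stat2, a subunit of the interferon-induced factor ISGF3, stood at 6.76, 5.37 and 6.26 FPKM at day 0 and 2.62, 2.53 and 3.08 FPKM at day 8 (log2 -1.03 ± 0.19) and Bst2, the virus-tethering protein tetherin, at 148, 122 and 138 FPKM at day 0 and 66.4, 83.7 and 79.3 FPKM at day 8 (log2 -0.83 ± 0.11), and both fell. Irf9, the partner of Stat2 in that factor, rose from 1.98 ± 0.145 to 3.79 ± 0.185 FPKM, log2 0.79 ± 0.15 and the receptor subunit Ifngr2 from 2.55 ± 0.241 to 5.12 ± 0.7 FPKM, log2 0.88 ± 0.12.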

How the data were processed

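Polyadenylated RNA was measured in 27 libraries in 9 groups of 3, and the 15 whole-cell libraries of 5 days entered the fit. Per the file headers, the authors deposited FPKM for 38123 genes. GENCODE M21 gave a symbol to 36253 of them. TopHat2 (version 2.0.9), Cufflinks (version 1.3.0) and mm9 are listed per the submitters' processing notes, without their roles. The annotation used, whether strand was used and how multiply matching reads were counted is not given in the sources used here. Overlapping and antisense genes may therefore share reads. Read totals were not used, and relative depth was estimated from steps between low values. The labels call the replicates biological but do not mention separate cultures, so a p-value reflects only the spread among these libraries.

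Genes whose mean reached 0.5 FPKM in 1 day or more were tested as log2(FPKM + 0.5) by limma (version 3.58.1; R 4.3.3) with eBayes and a trend, 10 residual degrees of freedom and Benjamini-Hochberg adjustment at 0.05 over 15991 genes. A second fit held the 12 fraction libraries (17124 genes). The step was tested on simulated data. Symbols, classes and coordinates came from GENCODE M21 on GRCm38 by gene identifier. A near-identical copy was a match of at least 95% identity over at least 10% of the longest transcript to another gene's longest transcript, pseudogenes included (blastn 2.17.0); no genome was aligned. Named genes were Dicer1, the 12 largest rises and 12 largest falls that passed, reached 5 FPKM in 1 group and did not overlap, and up to 4 members per list with the largest difference, plus the largest in the rarer direction; genes given as not passing are key factors of their list. Predicted models were left out, and 1 of the 12 falls and a few list members are not reported here. There were 45 gene lists and 10 marker lists. The comparison, lists and rules were chosen with earlier results of these data known. Alternatives were pseudocounts of 0.1 and 1, other filters (none, or 1 FPKM), median-of-ratios scaling, quantile normalization, a replicate block, fewer libraries and each library left out. Promoters are RefSeq's (GRCm38.p6). Python 3.11.15, numpy 2.4.6, pandas 2.3.3, scipy 1.17.1 and matplotlib 3.10.9 were used.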

Additional observations from a re-analysis of the deposited data

Results flagged for a closer look

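For 20 of the 23 large changes described, the difference between day 8 and day 4 itself passed the test, so the effect at day 8 differed from that at day 4. The differences of day 8 from day 4 were 2.26 for Csf1, 2.18 for Thbs1, 2.49 for Actc1, 1.71 for Msln, 2.18 for Acta2, 1.68 for Anxa1, 1.74 for Pmp22, 1.48 for Prss35, 1.53 for Lxn, 1.36 for F3 and 1.59 for Edn1 on the log2 scale. For the falls they were -0.75 for Adarb2, -0.98 for Pim2, -1.21 for Enpp2, -1.09 for Platr14, -1.38 for Nrtn, -1.35 for Platr3, -0.84 for Dcdc2b, -1.14 for Ybx2 and -0.81 for Pigyl. The day 8 libraries are shared with the main comparison, and the genes were chosen for large differences at day 8, which favours such passes. Among all genes 19.9% passed between day 4 and day 8. In 2 genes every cytoplasmic library of day 12 went the other way from whole cells of day 8, by -0.49 for Actc1 and 0.15 for Prickle3, and the difference between the 2 effects was not tested.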

How the results depend on the processing

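The count of genes higher stayed within 1.5 times of 3230 in every alternative run. The count of genes lower, 1539, became 2886 after quantile normalization and 2379 with only the 2 groups compared. Leaving out each library gave 3484 to 3942 genes called, 2510 to 2677 higher and 974 to 1265 lower, the fewest lower without day 0 replicate 1. No gene called in both settings had opposite directions. Of the 193 named genes none changed direction; calls were lost most often without day 0 replicate 1 (19 genes) and, among the settings that kept all libraries, after quantile normalization (11 genes). Of the 90 list counts, 30 moved by over 1.5 times after quantile normalization, 21 after median-of-ratios scaling and 19 with only the 2 groups compared. A replicate block gave 4412 calls, 3023 higher and 1389 lower, and ended the calls of 6 named genes. Libraries of the same number deviated together only weakly (correlations of 0.032 to 0.052, against -0.038 to -0.007 otherwise), although each correlated best with its own number, so the numbers were not taken as pairs. For the 23 largest changes described, settings added after the data were seen gave 19 to 21 genes passing between day 4 and day 8, 7 between day 8 and day 10, and 18 in the cytoplasm. Depth, lower at day 8, limits genes near 0.5 FPKM most; the causes of these changes were not tested.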

Other observations

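Several further groups had members that passed, to be read against 19.9% of all genes higher and 8.95% lower. Some were not far from the share higher: Polycomb genes at 22.7%, Notch genes at 23.5%, lysosomal genes at 26.5% and clock genes at 27.3%. Cholesterol synthesis genes, at 15%, were below it. For those groups the counts are no result about the group. Of neuronal genes, 10 of 20 tested members rose and 0 fell (7 to 10 and 0 to 3 over the alternatives), with a median of 0.33. The neurofilament genes Nefl, at 16.1, 18.2 and 20.0 FPKM at day 0 and 47.8, 49.2 and 46.8 FPKM at day 8 (log2 1.39 ± 0.12), and Nefm, at 6.49, 8.58 and 10.4 FPKM at day 0 and 21.5, 23.8 and 22.2 FPKM at day 8 (log2 1.38 ± 0.28), were the largest, followed by the adhesion gene Ncam1 (2.11 ± 0.166 to 5.19 ± 0.983 FPKM, log2 1.11 ± 0.17) and the secreted neuropeptide gene Vgf (7.23 ± 1.97 to 14.8 ± 1.14 FPKM, log2 1.02 ± 0.2). Beside them, the 8 neuroectoderm markers summed to 52.1 to 65 FPKM at day 0 and 89.5 to 94.4 FPKM at day 8, with Sox1, Nes and Tubb3 higher and Neurog2 and Hes5 under 0.3 FPKM in both; their part was not tested. Of guidance cues and receptors, 12 of 37 tested members rose and 1 fell (7 to 17 and 1 to 6 over the alternatives, 7 rose without day 0 replicates 1 or 3), with a median of 0.36, led by the ephrin gene Efnb1, at 1.24, 1.9 and 1.33 FPKM at day 0 and 5.44, 5.85 and 6.35 FPKM at day 8 (log2 1.69 ± 0.26), and the semaphorin gene Sema3e (7.7 ± 1.65 to 18 ± 0.623 FPKM, log2 1.19 ± 0.22). Of Notch genes, 4 of 17 tested members rose and 1 fell (3 to 9 and 1 to 3 over the alternatives), with a median of 0.29. The modulator gene Lfng went from 4.52 ± 0.834 to 10.4 ± 0.941 FPKM, log2 1.12 ± 0.18 and the target Hes1 from 9.28 ± 0.877 to 18.1 ± 1.31 FPKM, log2 0.93 ± 0.22, while Hey1, another target, fell from 1.48 ± 0.0176 to 0.642 ± 0.111 FPKM, log2 -0.8 ± 0.19. Of retinoic acid genes, 7 of 17 tested members rose and 2 fell (4 to 8 and 1 to 3 over the alternatives, 1 fell without day 0 replicates 1 or 2 or day 8 replicates 2 or 3), with a median of 0.36. Crabp1, a binding protein of retinoic acid, fell from 19.3 ± 1.65 to 9.05 ± 1.17 FPKM, log2 -1.06 ± 0.19, and Stra8, a gene that retinoic acid induces in germ cells, rose from 0.954 ± 0.226 to 2.59 ± 0.22 FPKM, log2 1.1 ± 0.15. In the libraries labelled day 12, Hes1 was at 18.4 FPKM and Stra8 at 2.46 FPKM, close to their day 8 levels. The 6 germ cell markers summed to 36.7 to 41.7 FPKM at day 0 and 39 to 41 FPKM at day 8, and the 2-cell-stage markers to 0.0175 to 0.183 FPKM at day 0 and 0.152 to 0.434 FPKM at day 8. The germ cell sum hides opposite calls. Tex19.1, its largest part, fell from 21.2 to 17 FPKM, while Ddx4 rose from 8.13 to 11.8 FPKM and Stra8 rose as given above.

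Of Polycomb genes, 5 of 22 tested members rose and 0 fell (2 to 6 and 0 to 2 over the alternatives, 2 rose without day 0 replicate 1; 3 rose without day 0 replicates 2 or 3 or day 8 replicates 1 or 2; 1 fell without day 0 replicate 3), with a median of 0.09. Aebp2, an accessory subunit of the complex PRC2, stood at 8.09, 9.32 and 9.64 FPKM at day 0 and 16.5, 16.6 and 17.3 FPKM at day 8 (log2 0.87 ± 0.14), while Ezh2, its catalytic subunit, had means of 23.4 and 22.6 FPKM and did not pass. Of circadian clock genes, 3 of 11 tested members rose and 1 fell (3 to 4 and 1 to 3 over the alternatives), with a median of 0.06. Clock stood at 1.99, 1.95 and 2.02 FPKM at day 0 and 5.35, 5.62 and 6.92 FPKM at day 8 (log2 1.37 ± 0.2), and Cry1, a repressor of its product, at 11.3, 12.3 and 12.2 FPKM at day 0 and 6.48, 7.1 and 6.49 FPKM at day 8 (log2 -0.79 ± 0.1). Neither gene's groups overlapped, and 7 of the 11 tested clock genes were not called. Of antioxidant genes, 8 of 17 tested members rose and 0 fell (6 to 10 and 0 over the alternatives), with a median of 0.25. Gpx1, a glutathione peroxidase, stood at 169.6, 202 and 174 FPKM at day 0 and 409.5, 437 and 362 FPKM at day 8 (log2 1.15 ± 0.13), and Srxn1 and Nqo1, targets of the factor Nrf2, went from 13.2 ± 1.01 to 22.7 ± 1.36 FPKM, log2 0.76 ± 0.11, and from 17.5 ± 1.44 to 27.1 ± 1.58 FPKM, log2 0.62 ± 0.11. Of lysosomal genes, 9 of 34 tested members rose and 4 fell (5 to 15 and 1 to 7 over the alternatives, 1 fell without day 0 replicate 3; 2 fell without day 0 replicate 1 or day 8 replicate 1), with a median of 0.19. Ctsf, a cathepsin, went from 3.54 ± 0.283 to 7.89 ± 0.213 FPKM, log2 1.06 ± 0.13 and the membrane protein gene Lamp2 from 5.83 ± 0.482 to 11.1 ± 0.695 FPKM, log2 0.88 ± 0.09, while Hexa fell from 32.8 ± 3.98 to 21.5 ± 0.568 FPKM, log2 -0.59 ± 0.1. Of autophagy genes, 7 of 22 tested members rose and 2 fell (5 to 8 and 2 to 3 over the alternatives), with a median of 0.11, with Atg16l1 going from 4.58 ± 0.223 to 8.18 ± 0.46 FPKM, log2 0.77 ± 0.14 and Map1lc3b, which marks autophagosomes, falling from 9.47 ± 0.555 to 5.95 ± 0.363 FPKM, log2 -0.63 ± 0.12. Of cholesterol synthesis genes, 3 of 20 tested members rose and 2 fell (3 to 4 and 0 to 7 over the alternatives, 0 fell without day 0 replicates 1 or 3 or day 8 replicate 3; 1 fell without day 8 replicates 1 or 2), with a median of 0.05. Sc5d, Cyp51 and Ebp rose by 0.44, 0.42 and 0.39.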
